A study of Sus scrofa with 5 samples.

Results

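The neural crest and glial genes described here are the 9 genes *SOX10*, *FOXD3*, *TFAP2B*, *ERBB3*, *SCRG1*, *NPY*, *ZEB2*, *SOX9* and *SNAI2*, of 30029 gene names in the count files. They were measured by droplet single-cell RNA-seq in 2 libraries of porcine blastoids, and by bulk RNA-seq in 3 libraries of porcine embryonic stem cells (pESCs). Blastoids are hollow cell aggregates that model the blastocyst. Here they were made from pESCs, collected on day 6 in iBlastoid medium and chosen by hand for a cavity and inner and outer compartments, so the libraries hold picked structures pooled within each library. The pESCs were grown in 4FIXY medium on feeder cells, which per the study's methods were mouse embryonic fibroblasts. No label says whether the blastoid libraries came from separate cultures, so p-values measure only the spread between these libraries, which may be technical.

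The 9 genes were chosen with their levels and their co-detection in these cells already known. Their own values are therefore given as a description, without tests, and tests are given only for other genes. Cells were barcodes with at least 11223 unique molecular identifiers (UMIs) in library 1, which gave 7369 cells, and at least 9805 UMIs in library 2, which gave 8175 cells. Cells were placed in classes by 2 rules. A total of 685 cells (255 and 430 in libraries 1 and 2) had at least 15 *CRABP1* UMIs and are called CRABP1-high, after a retinoic acid-binding protein. Another 1399 cells (834 and 565) had at least 10 UMIs of *COL3A1* and *COL1A2* together and are called collagen-high. Both rules were met by 72 cells (44 and 28), and neither by 13388 (6236 and 7152), called the remaining cells.

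The neural crest is a transient population of vertebrate embryos that forms at the border of the neural plate, leaves the epithelium, migrates and gives rise to glia, peripheral neurons, melanocytes and facial skeleton. Border factors such as PAX3 and TFAP2A act early, specifiers such as FOXD3, SOX9, SOX10 and SNAI2 follow, and SOX10 persists in the glial and melanocyte lineages, where the neuregulin receptor ERBB3 supports survival of glial precursors. Several of these genes also act elsewhere. FOXD3 is a factor of pluripotent cells, SOX9 acts in cartilage and other organs, and SNAI2 and ZEB2 are zinc-finger repressors of epithelial genes that are also used in mesenchyme.

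On the pig genome build Sscrofa11.1 (susScr11), *SOX10* (gene 414903) lies at chr5:9890439-9901746 on the plus strand, and *FOXD3* (gene 110261214) is a gene with 1 exon at chr6:149153397-149155576 on the minus strand. *SCRG1* (gene 106508718) lies at chr14:16620592-16664082 on the plus strand. *TFAP2B*, *ERBB3*, *NPY*, *ZEB2*, *SOX9* and *SNAI2* lie on chromosomes 7, 5, 18, 15, 12 and 4. *SCRG1* shares 38190 bases with *SAP30* on the opposite strand, and *ZEB2* shares 15161 bases with LOC110257199 on the opposite strand, while the other 7 genes overlap no annotated gene. The 250 bases before the annotated start of *SOX10*, *FOXD3* and *SCRG1* are shown because these were the genes found together in the same cells. They were read from the RefSeq genome of this build, 5′ to 3′ on the gene's strand, at chr5:9890189-9890438 (plus), chr6:149155577-149155826 (minus) and chr14:16620342-16620591 (plus), and capitals mark a match to the motif GCCNNNGGC of TFAP2 factors.
SOX10: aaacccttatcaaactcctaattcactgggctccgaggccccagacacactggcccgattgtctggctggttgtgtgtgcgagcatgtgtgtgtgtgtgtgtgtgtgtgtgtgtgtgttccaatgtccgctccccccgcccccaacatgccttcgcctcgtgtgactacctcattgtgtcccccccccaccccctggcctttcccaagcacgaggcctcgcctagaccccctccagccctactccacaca
FOXD3: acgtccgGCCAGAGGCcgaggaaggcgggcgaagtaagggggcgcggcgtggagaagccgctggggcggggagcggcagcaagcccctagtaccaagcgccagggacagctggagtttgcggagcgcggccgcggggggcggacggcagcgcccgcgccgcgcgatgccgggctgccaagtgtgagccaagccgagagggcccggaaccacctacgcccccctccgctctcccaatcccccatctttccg
SCRG1: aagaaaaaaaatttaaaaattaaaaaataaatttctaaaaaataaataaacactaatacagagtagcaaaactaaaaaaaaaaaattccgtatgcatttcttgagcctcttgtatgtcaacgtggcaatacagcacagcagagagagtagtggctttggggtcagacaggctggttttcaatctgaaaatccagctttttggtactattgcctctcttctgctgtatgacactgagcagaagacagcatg

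The motifs were searched on both strands in the 250 bases before the start of all 9 genes, namely AACAAT and ACAAAG (SOX factors), CAGGTG (ZEB and SNAI factors) and GCCNNNGGC. None of the first 3 was found before any of the 9 genes, while they were present in 7.06%, 12.1% and 19.5% of 19548 such windows genome-wide. GCCNNNGGC was found once each before *FOXD3*, *NPY*, *ZEB2* and *SOX9*, compared with 22.0% of all windows, and lay 243 bases before the start of *FOXD3*. The windows of *SOX10*, *FOXD3* and *SCRG1* differed in base composition, with a GC content of 60.0%, 73.6% and 34.4% against a genome-wide median of 57.6%. A match describes letters only, and these windows shared no searched motif.

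The 2 blastoid libraries held 289452283 and 302211552 UMIs over all barcodes, with a median of 29728 and 27588 UMIs per cell, and 9 cell barcodes occurred in both libraries. Median depth in the CRABP1-high cells was 26212 and 25954 UMIs, in the collagen-high cells 25140 and 20939, in cells meeting both rules 46714 and 28744, and in the remaining cells 30309 and 28210. The share of cells among the highest doublet scores was 11.8% in CRABP1-high, 16.0% in collagen-high, 19.4% in cells meeting both rules and 4.86% in the remaining cells. Its part in the results was not tested beyond leaving these cells out. Free RNA was read from barcodes with 10 to 100 UMIs, and levels are given as counts per 1000000 UMIs (CPM), summed over all cells of a class in a library. The free RNA level is thus a share of the UMIs of such barcodes, not an amount in a cell.

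*SOX10* was rare. It gave 491 UMIs in 260 of 15544 cells (1.67%), with 132 cells in library 1 and 128 in library 2 and at most 10 UMIs in a cell. Of its UMIs, 33.6% lay in CRABP1-high cells, 23.6% in cells meeting both rules, 10.2% in collagen-high cells and 32.6% in the remaining cells. Its level was 6.20 and 8.43 CPM in the CRABP1-high cells of libraries 1 and 2, 1.22 and 0.985 CPM in the collagen-high cells, 20.3 and 47.1 CPM in cells meeting both rules, and 0.384 and 0.332 CPM in the remaining cells. The CRABP1-high level was 16.2-fold and 25.4-fold that of the remaining cells, and the classes kept this order in both libraries. The level in the remaining cells was below that of free RNA, at 0.610 and 1.28 CPM from 1 and 3 UMIs. Exactly 1 *SOX10* UMI was held by 145 remaining cells, and whether these cells express the gene was not tested. With at least 2 UMIs required, 67 cells were left, 32 and 35 per library, of which 30 were CRABP1-high, 23 met both rules, 10 were collagen-high and 4 were remaining cells.

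*SCRG1*, which encodes a small secreted protein, and *FOXD3* were also highest in the cells meeting both rules, followed by the CRABP1-high cells. *SCRG1* was at 21.8 and 15.7 CPM in CRABP1-high cells and 53.9 and 115 CPM in cells meeting both rules. It was at 1.84 and 2.23 CPM in collagen-high cells and 0.80 and 0.86 CPM in the remaining cells. These last 2 classes were both below the free RNA level of 2.44 and 3.84 CPM, which came from only 4 and 9 UMIs. At least 5 *SCRG1* UMIs were held by 7 collagen-high and 5 remaining cells. *FOXD3* was at 7.88 and 11.5 CPM in CRABP1-high cells, 16.5 and 28.4 CPM in cells meeting both rules, 0.660 and 0.788 CPM in collagen-high cells and 0.622 and 1.02 CPM in the remaining cells. Collagen-high and remaining cells did not differ in a common direction for *FOXD3*, with ratios of 1.06 and 0.776. Both lay near free RNA at 0.610 and 0.853 CPM, a level from only 1 and 2 UMIs. At least 5 *FOXD3* UMIs were held by 5 of the remaining cells. *SCRG1* was detected in 449 cells and *FOXD3* in 353. CRABP1-high cells and cells meeting both rules, which are 4.87% of all cells, held 34.2% and 25.8% of all *SCRG1* UMIs and 31.2% and 11.8% of all *FOXD3* UMIs, while the remaining cells held 32.5% and 52.7%.

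**Figure D1:**
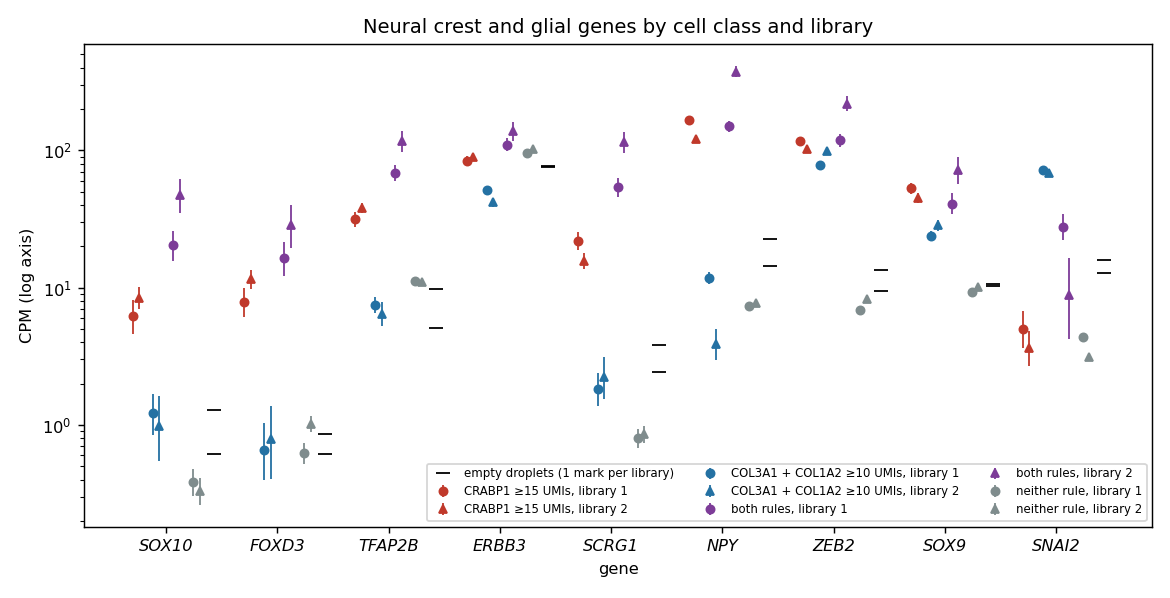
Level of the 9 genes in counts per 1000000 UMIs (CPM, log axis) in each cell class, with circles for library 1 and triangles for library 2, bars for the exact Poisson 95% interval (counting error only) and black marks for empty droplets with 10 to 100 UMIs. Red and purple points (CRABP1-high cells and cells meeting both rules) lie far above grey for *SOX10*, *FOXD3* and *SCRG1*, *SNAI2* is highest in blue (collagen-high), and *ERBB3* spans little, from 41.8 to 138 CPM.

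*TFAP2B*, a transcription factor of border and crest, and *SOX9* were more widely detected, in 3426 and 3385 cells. *TFAP2B* was at 31.5 and 38.2 CPM in CRABP1-high cells, 68.5 and 117 CPM in cells meeting both rules, 7.54 and 6.44 CPM in collagen-high cells and 11.3 and 10.9 CPM in the remaining cells. It was 2.79-fold and 3.49-fold higher in CRABP1-high than in the remaining cells, but 77.6% of its UMIs came from the remaining cells. There 1446 and 1552 cells held a *TFAP2B* UMI, and free RNA stood at 9.76 and 5.12 CPM. *SOX9* was at 53.1 and 45.1 CPM in CRABP1-high cells, 41.0 and 71.9 CPM in cells meeting both rules, 23.9 and 28.5 CPM in collagen-high cells and 9.30 and 10.1 CPM in the remaining cells. For *SOX9* the CRABP1-high cells and the cells meeting both rules changed places between libraries, so their order is not fixed, while both lay above the collagen-high cells in each library.

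*NPY*, which encodes neuropeptide Y, was detected in 1500 cells (9.65%), of which 229 held at least 5 UMIs. Of these 229 cells 164 were remaining cells, 43 CRABP1-high cells and 14 cells meeting both rules, and the 3 groups held 44.1%, 39.2% and 11.5% of its UMIs. It stood at 166 and 120 CPM in CRABP1-high cells against 7.36 and 7.68 CPM in the remaining cells, and at 150 and 375 CPM in cells meeting both rules. The collagen-high cells had 11.8 CPM in library 1 and 3.88 CPM in library 2, on either side of the remaining cells. A single CRABP1-high cell of library 1 held 479 *NPY* UMIs, 34.5% of the class total, and the 10 highest cells held 93.9% in library 1 and 73.1% in library 2. Among cells meeting both rules, 1 cell gave 342 of 463 UMIs in library 1 and 1 cell gave 284 of 422 in library 2. For comparison, the 10 highest of the CRABP1-high cells held 22.8% and 17.6% of the *ZEB2* UMIs. An *NPY* UMI was found in 23.1% and 23.0% of CRABP1-high cells and in 8.84% and 9.49% of remaining cells (12.5% and 14.7% against 3.9% and 4.4% after thinning to 9805 UMIs), where its level was below free RNA (22.6 and 14.5 CPM).

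*ZEB2* and *SNAI2*, both transition factors, split between the classes. *ZEB2* was high in both CRABP1-high cells, at 117 and 102 CPM, and collagen-high cells, at 78.5 and 98.6 CPM, compared with 6.91 and 8.32 CPM in the remaining cells and 13.4 and 9.38 CPM in free RNA. The CRABP1-high and collagen-high values of library 2 were close, 102 against 98.6 CPM. *SNAI2* was at 72.3 and 68.3 CPM in collagen-high cells, 16.4-fold and 21.8-fold the remaining cells at 4.4 and 3.1 CPM. In CRABP1-high cells it was at 5.01 and 3.66 CPM, below free RNA at 15.9 and 12.8 CPM, with no cell above 3 UMIs. Collagen-high cells held 62.6% of all *SNAI2* UMIs and CRABP1-high cells 1.83%. Cells meeting both rules were at 119 and 219 CPM for *ZEB2*. For *SNAI2* they were at 27.8 and 8.88 CPM, 6.32-fold and 2.83-fold the remaining cells, in library 2 from 10 UMIs.

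*ERBB3* was detected in 12565 cells (80.8%), but in 35.4% and 30.3% of collagen-high cells against 86.5% of the remaining cells in each library. Its level was 95.4 and 102 CPM in the remaining cells, 83.9 and 89.1 CPM in CRABP1-high cells, 110 and 138 CPM in cells meeting both rules and 51.5 and 41.8 CPM in collagen-high cells. Free RNA held 75.6 and 76.8 CPM, above the collagen-high level in each library. The collagen-high cells were the lowest class and the cells meeting both rules the highest in each library, and the CRABP1-high level was 0.879 and 0.873 times that of the remaining cells. In all, 7 of the 9 genes were at least 2-fold higher in CRABP1-high than in remaining cells in both libraries, the exceptions being *ERBB3* and *SNAI2*. These ratios follow from how the genes were chosen and are not evidence about the class.

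Which of the 9 genes occurred in the same cells was examined after thinning every cell to 9805 UMIs, so that deeper cells did not count for more. The number of cells with both genes of a pair was divided by the number that the product of their shares would give within the library. Over 36 pairs this ratio ran from 0.395 to 42.3. In both libraries, 17 pairs were at or above 2 and 3 pairs at or above 10, namely the 3 combinations of *SOX10*, *SCRG1* and *FOXD3*. At full depth the ratios of these 3 pairs were lower. *SOX10* with *SCRG1* then stood at 11.7 and 10.5 times the product instead of 42.3 and 36.3, *SOX10* with *FOXD3* at 11.1 and 10.2, and *FOXD3* with *SCRG1* at 9.94 and 5.37, which left 2 pairs at or above 10 in both libraries and 13 at or above 2. Class structure and depth are shared by all pairs, and the ratios are a description. *SOX10* and *SCRG1* were found together in 24 cells of library 1 against 0.568 by the product, and in 27 against 0.743 in library 2. *SOX10* and *FOXD3* were together in 12 cells against 0.394 and in 18 against 0.606. Of the thinned cells with *SOX10*, 47.1% and 45.8% also held *SCRG1*, and 29.3% and 26.2% of those with *SCRG1* held *SOX10*.

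**Figure D2:**
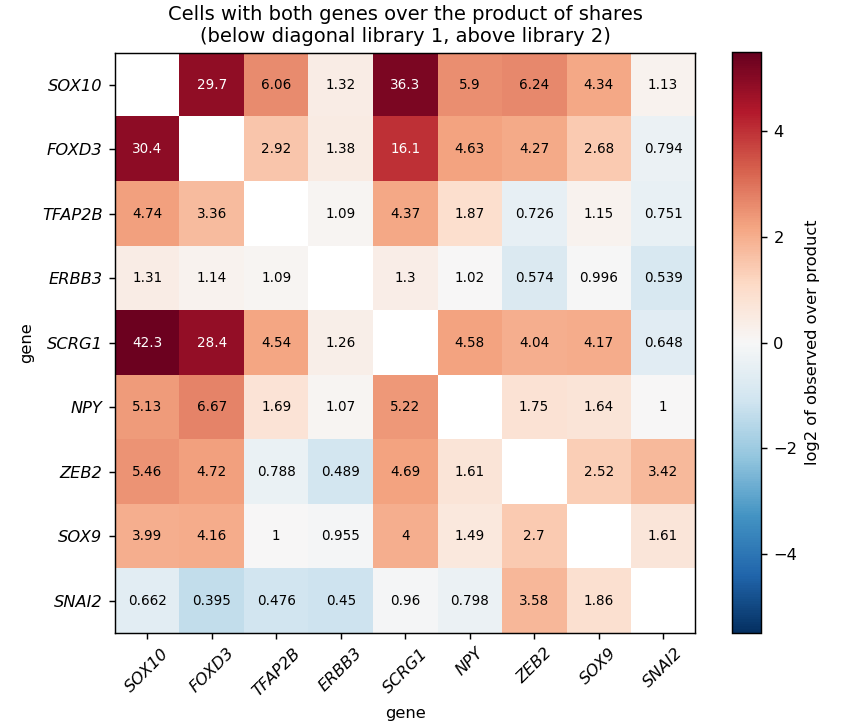
Cells holding both genes of a pair divided by the number given by the product of the 2 genes' shares, in cells thinned to 9805 UMIs, with library 1 below the diagonal and library 2 above it. Dark red marks *SOX10*, *SCRG1* and *FOXD3*, whose ratios run from 16.1 to 42.3, and blue includes *SNAI2* and *ZEB2* with *ERBB3*, at 0.450 to 0.574.

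*ZEB2* occurred in both patterns. It was found with *SOX10* at 5.46 and 6.24 times the product, and with *SNAI2* at 3.58 and 3.42 times. *SNAI2* and *SOX10* themselves were together in 3 and 4 thinned cells, against 4.53 and 3.54 by the product. At full depth this pair was above the product in both libraries, in 32 cells against 23.4 and 19 against 15.8. Below the product in both libraries were 7 pairs, and *SNAI2* was in 4 of them, with *FOXD3*, *TFAP2B*, *ERBB3* and *SCRG1*, while *ERBB3* with *ZEB2* or *SOX9* and *TFAP2B* with *ZEB2* made up the other 3. *SOX9* with *TFAP2B* stood at 1.00 and 1.15 times the product. At full depth 4 of these 7 pairs were below the product in both libraries, namely *SNAI2* with *FOXD3* or *ERBB3* and *ZEB2* with *TFAP2B* or *ERBB3*. *SNAI2* with *SCRG1* then stood above it, at 1.35 and 1.20, as did *ERBB3* with *SOX9*, at 1.00 and 1.05, and *SNAI2* with *TFAP2B* was at 0.880 and 1.01.

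At least 5 of the 9 genes were detected in 29.5% and 39.3% of the thinned cells meeting both rules and in 7.06% and 5.35% of CRABP1-high cells. The shares were 0.240% and 0.531% in collagen-high cells and 0.0481% and 0.0280% in the remaining cells. At full depth, all 9 genes were found in 7 cells, 4 of them CRABP1-high, 2 meeting both rules and 1 collagen-high.

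Among cells with at least 15 *CRABP1* UMIs, with or without collagen, 53 held at least 2 *SOX10* UMIs, 30 held 1 and 674 held none. Pooled over both libraries, the other genes except *SNAI2* were detected more often at each step of this count. Within libraries the exception was *ZEB2* in library 1, found in 12 of 12 cells with 1 *SOX10* UMI and in 22 of 23 with at least 2. *SCRG1* was detected in 51 of the 53 cells (96.2%), in 15 of the 30 and in 72 of the 674 (10.7%). *FOXD3* was detected in 43, 9 and 27 cells (81.1%, 30.0% and 4.01%), and *TFAP2B* in 51, 19 and 201 cells (96.2%, 63.3% and 29.8%). *ZEB2* was found in 98.1%, 80.0% and 62.0% of these cells, *SOX9* in 81.1%, 63.3% and 49.9%, and *ERBB3* in 98.1%, 80.0% and 65.7%. *SNAI2* showed the smallest span, 20.8%, 23.3% and 12.5%, and *NPY* was in 60.4%, 33.3% and 24.0%. Median depth in these groups was 29583, 27629 and 26464 UMIs.

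**Figure D3:**
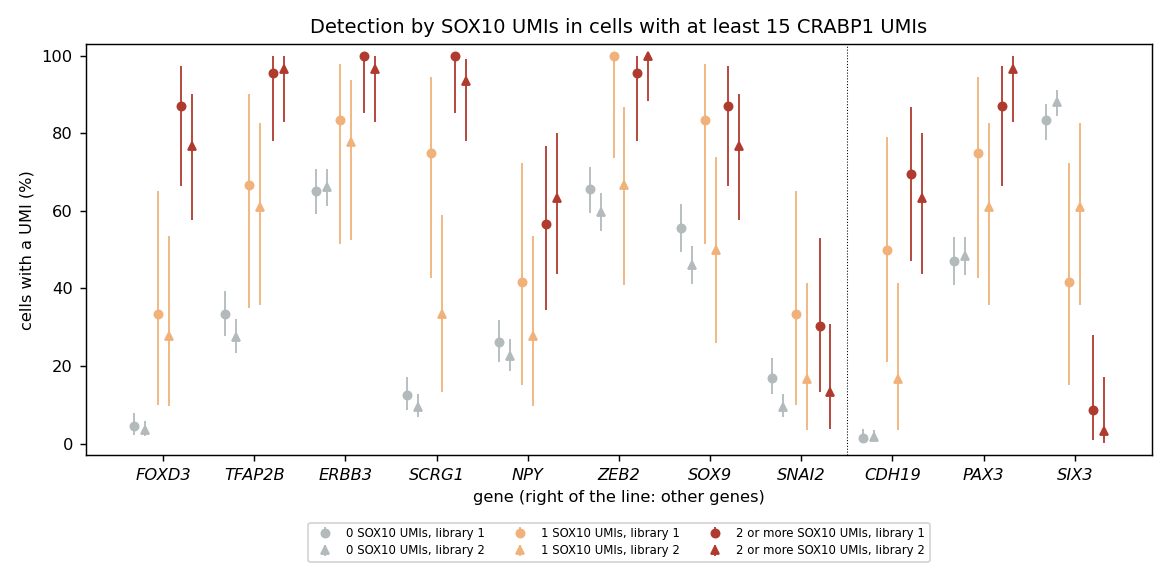
Share of cells with a UMI of each gene (y axis, %) in cells with at least 15 *CRABP1* UMIs, grouped by 0, 1 or at least 2 *SOX10* UMIs, with circles for library 1, triangles for library 2 and bars for the exact 95% binomial interval (counting error only). *SCRG1*, *FOXD3* and *CDH19* go from under 13% without *SOX10* to over 50% with at least 2 *SOX10* UMIs, while *SIX3* goes the other way, from over 80% to under 10%.

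Among the cells meeting both rules, those with and without *SOX10* were compared as a description. Depth differed between them in library 1, where the median was 34028 UMIs in 13 cells with at least 2 *SOX10* UMIs and 82008 in 28 cells without, against 33462 and 28485 UMIs in library 2, and shares are therefore given after thinning to 9805 UMIs and by library. In the 23 cells with at least 2 *SOX10* UMIs the median was 13 UMIs of *COL1A2* and 0 of *COL3A1* at full depth, and in the 45 cells without *SOX10* the medians were 16 and 6 UMIs. After thinning, *COL3A1* was in 30.8% against 53.6% of these cells in library 1 and in 1 of 10 against 5 of 17 cells in library 2. *COL1A1* was in 23.1% against 39.3% and in 0 of 10 against 6 of 17 cells, and *HAND1* in 23.1% against 42.9% and in 2 of 10 against 7 of 17. The shares of these 3 genes were thus lower with *SOX10* in each library. *LUM* went the other way in each library, in 23.1% against 14.3% and in 3 of 10 against 1 of 17 cells. *SIX3* was lower by very different amounts, in 15.4% against 25% in library 1 and in 0 of 10 against 12 of 17 cells in library 2. The libraries differed in direction for *MYL7*, at 46.2% against 28.6% and 1 of 10 against 2 of 17 cells. *DCN* was lower with *SOX10* in each library, in 7.7% against 25% and in 0 of 10 against 2 of 17 cells. Only at full depth did its direction differ, in 2 of 13 against 14 of 28 cells and 2 of 10 against 2 of 17. Pooled at full depth, the highest doublet scores took 8.70% against 24.4%. In the 10 collagen-high cells with at least 2 *SOX10* UMIs, *MYL7* was in 8 cells, against 69.1% of the collagen-high cells without *SOX10*. *SCRG1* was in 5 of the 10, namely 3 of 8 cells in library 1 and 2 of 2 in library 2. *FOXD3* was in 2 of the 10, namely 0 of 8 and 2 of 2. The highest doublet scores took 20.0% of these 10 cells, against 15.8% of the collagen-high cells without *SOX10*.

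The CRABP1-high cells were next split by *SOX10*, into 19 and 37 cells with at least 1 UMI and 236 and 393 cells without, to see which genes went with *SOX10* inside the class. Within this split the values of the 9 genes are again given without a test. *SCRG1* was at 219 and 134 CPM with *SOX10* and at 7.30 and 4.81 CPM without it. *FOXD3* was at 66.2 and 82.4 CPM against 3.59 and 4.97 CPM, and *TFAP2B* at 195 and 187 CPM against 19.5 and 24.5 CPM. *SOX9* was at 233 and 128 CPM against 39.8 and 37.5 CPM, *ZEB2* at 374 and 241 CPM against 98.5 and 89.3 CPM, and *ERBB3* at 185 and 157 CPM against 76.5 and 82.8 CPM. These 6 genes were higher with *SOX10* in each library. The genes were chosen with their co-detection known, so this is not evidence about the split. *NPY* was lower with *SOX10* in library 1, at 115 against 170 CPM, and higher in library 2, at 430 against 91.8 CPM, and leaving out the highest cell of each sum gave 75.0 against 108 and 269 against 76.7 CPM. *SNAI2* rested on 8 and 6 UMIs in the cells with *SOX10*, at 13.9 and 5.32 CPM against 4.36 and 3.50 CPM.

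Other genes of crest and glia came from lists set up by role, but with earlier results of these data known. Counts of calls over the lists are therefore a description and not independent support. The genes were tested across all genes with edgeR's quasi-likelihood test on counts summed per library (n = 2 libraries, Benjamini-Hochberg adjusted p below 0.05). Between CRABP1-high cells with and without *SOX10*, 22 of 57 tested list genes changed, 13 higher and 9 lower, with a median log2 fold change of -0.03. Of all 13271 genes tested, 4.67% were called, 2.34% higher and 2.33% lower, and their median was 0.00. The count over all genes was 620 in this fit, 1195 with the library as a block, 1162 with no filter on low counts, 1411 with at least 2 *SOX10* UMIs required and 1344 with the cells meeting both rules included. The block lost no call among the list genes and added *SNAI1* (1.12, adjusted p = 0.00036), *NR2F2* (1.10, adjusted p = 0.038), *ITGA4* (1.86, adjusted p = 0.00014), *KIT* and *EPCAM* (-0.91, adjusted p = 4.5e-07).

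Of the glial genes, 2 of 9 tested rose. *CDH19*, a cadherin of Schwann cell precursors, was at 66.2 and 22.2 CPM with *SOX10* and at 1.15 and 0.489 CPM without it (log2 fold change 5.72 ± 0.57 SE, adjusted p = 0.0002). *CNP*, a myelin-associated phosphodiesterase gene, was at 162 and 124 CPM against 45.5 and 41.5 CPM (1.73 ± 0.15). Other glial genes did not pass. *FABP7* was at 13.9 and 11.5 CPM against 12.0 and 9.12 CPM (0.30 ± 0.36, adjusted p = 0.73), and *S100B* had a log2 fold change of 0.61 ± 0.56.

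Of the specifier genes, 5 of 12 rose, with a median log2 fold change of 1.09. *ETS1*, a factor of cranial crest, was at 160 and 102 CPM with *SOX10* and at 9.5 and 7.0 CPM without it, a log2 fold change of 4.01 ± 0.23. *SOX5* (1.77), *NR2F1* (1.91), *MYCN* (1.26) and *ID3* (0.71) were the others. *SOX8*, a SoxE factor like *SOX9* and *SOX10*, was at 15.7 and 11.5 CPM against 9.10 and 9.28 CPM and did not pass (0.55 ± 0.35, adjusted p = 0.45). Among border genes 2 rose and 2 fell of 8 tested. *PAX3* was at 138 and 169 CPM against 78.1 and 72.5 CPM (1.11 ± 0.14) and *TFAP2A* at 179 and 175 CPM against 122 and 118 CPM (0.62 ± 0.12), whereas *PAX7* (-0.73) and *DLX5* (-0.98) were lower.

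Of the 13 migration and signalling genes tested, 3 rose and 4 fell. *EDNRB*, the endothelin receptor of crest and melanoblasts, was at 40.0 and 46.1 CPM with *SOX10* and at 11.4 and 11.8 CPM without it (1.97 ± 0.23), *NRP2* rose by 2.13 ± 0.40 and *RET* by 1.91 ± 0.48, the last from 4 and 13 UMIs. *NRG1*, which encodes the ligand of the ERBB3 receptor, was lower, at 38.3 and 23.0 CPM against 102 and 91.3 CPM (-1.71 ± 0.21), and so were *ERBB4* (-0.94), *NRP1* (-0.95) and *CDH6* (-0.92). *ERBB2*, the partner receptor of ERBB3, was at 52.3 and 39.0 CPM against 45.4 and 49.8 CPM (-0.07 ± 0.20, adjusted p = 0.91). *NGFR*, a crest surface marker, had 6 and 7 UMIs and did not pass (1.14 ± 0.49, adjusted p = 0.25).

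Of 4 tested genes each on the melanocyte and derivative neuron lists, none passed in this split with edgeR or with DESeq2, and at an unadjusted p below 0.05 edgeR gave 2 melanocyte genes (*KIT* and *PMEL*) and 1 neuron gene (*DBH*). With the library as a block *KIT* passed (0.58, adjusted p = 0.02). *NPY1R*, the only NPY receptor tested, did not pass (0.20 ± 0.68, adjusted p = 0.92). *MITF*, the melanocyte regulator, was at 22.6 and 26.6 CPM against 34.0 and 33.9 CPM (-0.37 ± 0.23, adjusted p = 0.44), *DCT* had 2 and 5 UMIs, and *TYR*, *TYRP1* and *MLANA* had no UMI in the cells with *SOX10*. Among 6 transition genes, *VIM* rose (1.55 ± 0.14) and *CDH1* (-0.88), *CDH2* (-0.68) and *FN1* (-0.63) fell. Of the genes called in this split, some lost the call under an alternative. *NRP1* (adjusted p = 0.076), *RET* (0.064), *DLX5* (0.11), *CDH1* (0.2) and *CDH2* (0.057) did so with doublets left out, and *NRP1* (0.21), *RET* (0.14) and *DLX5* (0.09) also with DESeq2. With the cells meeting both rules included, *FN1* (0.053), *NRP1* (0.12) and *RET* (0.15) did so. *NRP1* also did so with DESeq2 size factors (0.052), the mitochondrial filter (0.061) and at least 2 *SOX10* UMIs required (0.053). *RET* also did so when scaled by library size only (0.055).

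Of 8 anterior neural markers 7 fell, with a median log2 fold change of -2.05. *SIX3* was at 29.6 and 71.8 CPM with *SOX10* and at 268 and 257 CPM without it (-2.17 ± 0.23), *LHX2* at 52.3 and 59.4 CPM against 241 and 213 CPM (-1.94 ± 0.16), and *PAX6* fell by 2.68 and *SOX1* by 2.81 on the log2 scale. None of 5 tested mesenchyme and cardiac markers passed with edgeR or DESeq2, 2 had an unadjusted edgeR p below 0.05 (*COL1A1* and *MYL7*, both with negative fold changes). *POSTN* had a log2 fold change of 1.26 ± 0.72 (adjusted p = 0.4), and *LUM* and *DCN*, too low to test, had 4 and 0 UMIs in the cells with *SOX10* of library 1 and none in library 2. The genes of the collagen rule are given without a test, because cells with 10 or more of their UMIs were left out of this split by definition. *COL1A2* was at 87.1 and 91.2 CPM against 38.2 and 19.1 CPM, and *COL3A1* had 7 and 2 UMIs in the cells with *SOX10*.

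**Figure D4:**
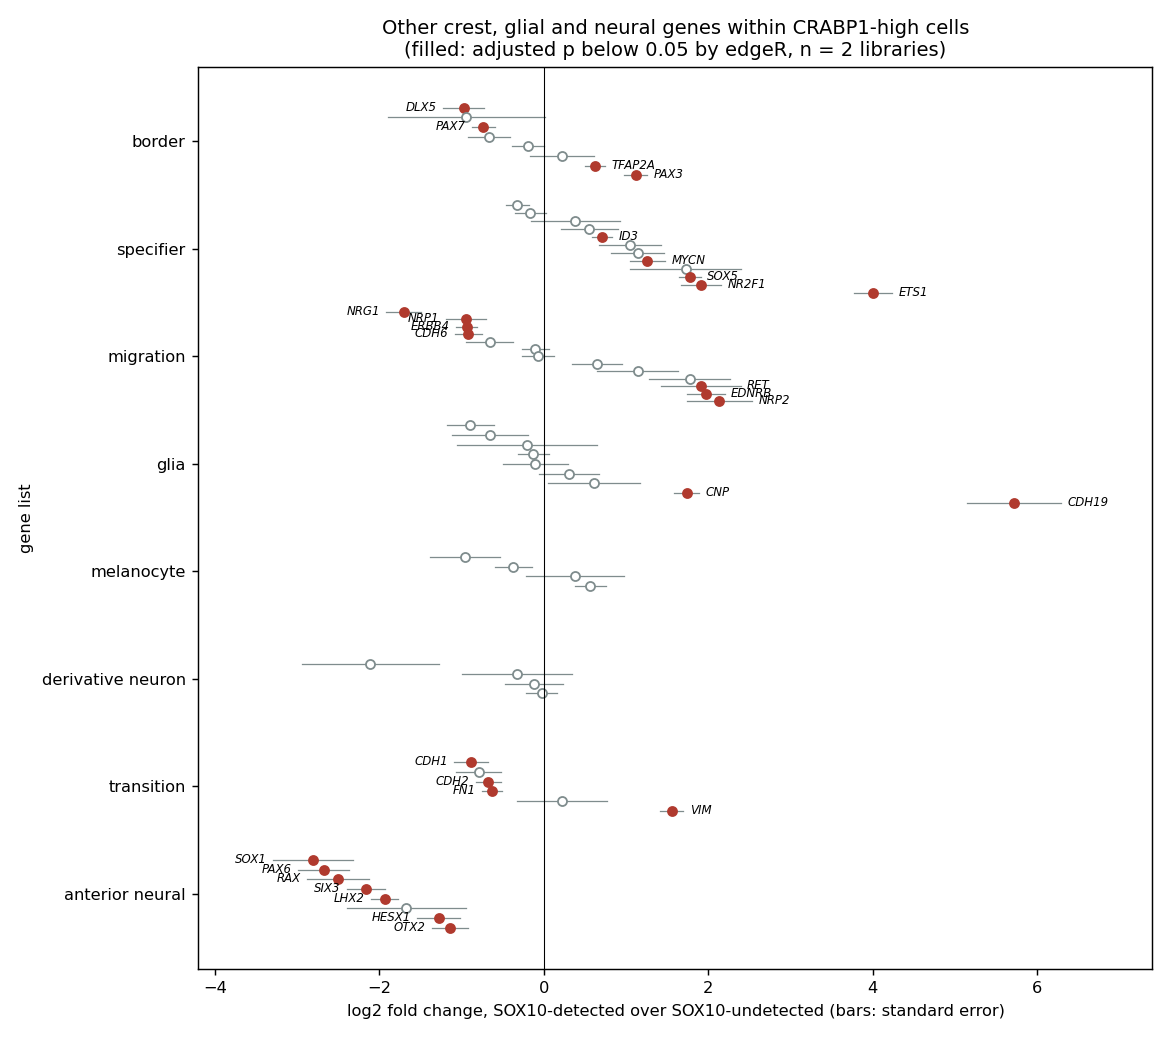
Log2 fold change (x axis, bars show the standard error) of other genes by list between CRABP1-high cells with and without *SOX10*, from edgeR on sums of 2 libraries, with filled points for an adjusted p below 0.05. *CDH19* (5.72) and *ETS1* (4.01) lie farthest to the right, and 7 of 8 anterior neural genes are filled on the left.

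Compared with the remaining cells, the CRABP1-high cells as a class had 34 of 59 tested list genes higher and 11 lower, with a median log2 fold change of 0.82. Over all 17034 genes 31.6% were called, 16.4% higher and 15.2% lower. Of all calls 52.0% were higher, and 68.0% were when scaled by library size only, which moved the median of all genes to 0.11. Higher were 4 of 8 border, 8 of 12 specifier, 10 of 13 migration, 6 of 10 glial, 2 of 4 melanocyte, 1 of 5 derivative neuron and 3 of 6 transition genes. Lower were 2, 2, 1, 1, 1, 2 and 2 genes of these lists, in the same order. *PAX7* was at 237 and 212 CPM against 8.48 and 13.1 CPM (4.27 ± 0.18) and *PAX3* at 82.2 and 80.6 CPM against 5.03 and 6.00 CPM (3.78 ± 0.10). *CDH6* was at 333 and 295 CPM against 5.08 and 6.68 CPM (5.63 ± 0.15). *TFAP2A* went the other way, at 126 and 123 CPM against 316 and 283 CPM (-1.38 ± 0.11). *ZIC1* (3.71) and *MSX1* (0.75) were the other border genes that rose.

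Among the higher specifiers of this comparison were *NR2F1* (3.03), *SOX8* (2.53 ± 0.19), *ETS1* (1.81), *SNAI1* (1.71) and *SOX5* (1.58), and among the migration genes *CDH11* (2.77), *PDGFRA* (2.02), *NGFR* (1.94 ± 0.24) and *ITGA4* (1.58). The specifiers *NR2F2* (-1.30) and *MYCN* (-0.47) were lower. *ERBB2* (1.00 ± 0.09) and *NRG1* (0.82 ± 0.10) were higher and *EDNRB* lower (-0.89 ± 0.09). The direction of *EDNRB* and *NRG1* across the whole class was thus opposite to that within it, where *EDNRB* was higher and *NRG1* lower in the cells with *SOX10*. The glial genes were led by *CDH19* (4.57 ± 0.56), *S100B* (2.12), *POU3F1* (1.79), *FABP7* (1.68 ± 0.19) and *PMP22* (1.65), while *MBP* was lower (-1.42). Of the melanocyte and neuron genes, *PMEL* (2.08), *MITF* (0.57 ± 0.10, but -0.050 with adjusted p = 0.77 when at least 30 *CRABP1* UMIs were required) and *DBH* (3.97) were higher and *KIT* (-0.93), *ISL1* (-1.80) and *NEUROG1* (-2.34) lower. *ZEB1* (3.73), *CDH2* (2.75) and *VIM* (2.68) rose while *EPCAM* (-0.42) and *FN1* (-0.34) fell. *NEUROG1* (adjusted p = 0.075) and *EPCAM* (0.067) lost the call with at least 10 *CRABP1* UMIs required, as did *MSX1* (0.097). Of the markers of other cell types, all 8 anterior neural ones were higher in the class, with a median log2 fold change of 3.28. Lower were 3 of 4 trophectoderm markers, among them *GATA3* (-1.48) and *GATA2* (-1.16), 2 of 4 pluripotency markers, *POU5F1* (-1.32) and *UTF1* (-1.58), and 4 of 7 mesenchyme and cardiac markers. Of these 7, 1 was higher, *COL1A1* (1.445). The part of these markers in the changes of *TFAP2A* and the other list genes was not tested.

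In the collagen-high cells 25 of 59 list genes were higher and 17 lower than in the remaining cells, with a median log2 fold change of 0.08, while 41.6% of all genes tested were called (21.8% higher and 19.8% lower). This comparison shares the remaining cells with the previous one. Border genes fell more often than they rose, 5 against 2 of 8, with *PAX3* at 2.01 and 2.30 CPM (-1.32 ± 0.15, but 0.66 with adjusted p = 0.017 when the cells meeting both rules were included), *PAX7* (-1.13), *DLX5* (-1.52) and *TFAP2A* (-1.29 ± 0.10) lower and *MSX1* higher, at 159 and 190 CPM against 14 and 11 CPM (3.88 ± 0.20). Specifiers rose in 8 of 12 cases and fell in 1, led by *TWIST1*, a regulator of mesenchyme, at 461 and 535 CPM against 17.5 and 9.34 CPM (5.27 ± 0.32). *NR2F1* (3.77), *ETS1* (3.08), *SOX6* (2.69), *SOX5* (2.29) and *SNAI1* (2.11) followed, and *SOX8* also rose (0.86 ± 0.20).

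Of the migration genes in collagen-high cells, 6 of 13 rose and 2 fell, and *CDH11* (3.71), *PDGFRA* (3.21), *NRP2* (1.98), *NGFR* (1.59 ± 0.22) and *NRG1* (1.37 ± 0.10) were higher, *EDNRB* was lower (-0.32 ± 0.08) and *ERBB2* did not pass (0.17 ± 0.09, adjusted p = 0.19). Of the glial genes, 4 of 10 rose and 2 fell. *CDH19* did not pass (2.01 ± 0.72, adjusted p = 0.052, or 0.046 with the library as a block), nor did *FABP7* (0.26 ± 0.20, adjusted p = 0.35), and *S100B* (1.80), *PMP22* (1.52) and *EGR2* (0.69) rose while *POU3F1* (-1.40) and *L1CAM* (-1.15) fell. *MITF* (-1.21 ± 0.11), *PMEL* (-1.04) and *KIT* (-1.38) were lower, as were *NEUROG1* (-2.06) and *STMN2* (-1.31), while *DBH* was higher (3.67). *ZEB1* (4.18), *VIM* (4.06) and *FN1* (1.06) rose and *EPCAM* (-1.28) and *CDH1* (-0.99) fell. With the cells meeting both rules included, *PAX7* (-0.14, adjusted p = 0.63) and *EDNRB* (-0.24, adjusted p = 0.051) lost the call. All 7 mesenchyme and cardiac markers rose, and so did 2 of 3 hypoblast markers, *GATA6* (4.35) and *GATA4* (3.95), both far above the remaining cells in each library. The part of these markers in the changes of the list genes was not tested.

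The genes whose pattern across cells was most like that of *SOX10* were ranked by Pearson correlation over all cells of each library, taking the lower of the 2 values, among 19412 genes. Cells of a library share its preparation and free RNA, and no test is attached. *SCRG1* came first (0.64), followed by *CDH19* (0.54), *FOXD3* (0.43), *INSC* (0.34), *FAM212A* (0.30), *PECR* (0.28), *RASSF4* (0.27), *TFAP2B* (0.27), *ETS1* (0.26) and *COL11A2* (0.26). Of these, *CDH19* was detected in 56.2% and 62.9% of cells with at least 2 *SOX10* UMIs and in 0.401% and 0.286% of cells without *SOX10*. *INSC*, which encodes an adaptor of spindle orientation, was in 34.4% and 54.3% against 1.13% and 1.09%, and *COL11A2*, a gene of fibrillar collagen, was in 37.5% and 60% against 1.37% and 1.45%. Among those not confined to cells with *CRABP1* were *FAM212A*, *PECR*, *ETS1* and *TFAP2B*. Collagen-high cells held 9.69 and 12.0 CPM of *FAM212A* and 8.48 and 10.5 CPM of *PECR*. The remaining cells held 0.861 and 0.808 CPM of *FAM212A* and 2.07 and 2.19 CPM of *PECR*. *ETS1* was at 30.3 and 44.7 CPM in collagen-high cells, against 19.8 and 15.0 CPM in CRABP1-high cells. Of the *TFAP2B* UMIs 77.6% came from the remaining cells.

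In the 3 bulk pESC libraries, named IVFP25, PA_4P7 and PAP25 in the deposited table, levels were read as fragments per kilobase and 1000000 fragments (FPKM), summed over the transcripts of a gene. This unit sets genes against each other per length, and its depth is unknown. The library names differ in more than a replicate number and no label explains them, so the SD may hold more than replicate spread. *ERBB3* was the highest of the 9, at 53.9, 62.9 and 43.1 FPKM (53.3 ± 9.92, SD, n = 3). *FOXD3*, which is also a gene of pluripotent cells, stood at 8.20, 5.14 and 12.6 FPKM (8.66 ± 3.76). *SOX9* followed at 1.78, 2.75 and 2.95 FPKM and *ZEB2* at 1.90, 1.49 and 2.68 FPKM, and their ranges overlapped. *NPY* was at 0.354, 1.04 and 1.13 FPKM, *SNAI2* at 0.263, 0.414 and 0.367 FPKM and *SOX10* at 0.0803, 0.808 and 0.169 FPKM. *SCRG1* was at 0.0174, 0.0605 and 0.0437 FPKM, and *TFAP2B* was listed at 0 in each library. *SOX10* had an SD of 0.397 FPKM over a mean of 0.352 FPKM, with PA_4P7 the highest, and *NPY* was above *SNAI2* and *SOX10* in each library while these last changed places.

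At least 1 FPKM in all 3 pESC libraries was reached by 4 of the 9 genes, and by 37.0% of all 29886 genes. *CDH19*, second in likeness to *SOX10* across blastoid cells, was listed at 0 in the 3 libraries. *ERBB2* was at 79.0, 78.1 and 76.5 FPKM. Fibroblast markers, given here because of the feeder cells, summed to 9.25, 8.06 and 9.03 FPKM over 7 genes, of which 3 reached 1 FPKM in each library. The sums of 4 pluripotency markers were 1494, 1385 and 1049 FPKM. Reads were mapped to the pig genome while the feeders were mouse cells, so the fibroblast sums do not gauge feeder RNA. In a bulk sample, fewer cells with a gene and less RNA of it per cell cannot be told apart. FPKM and CPM come from different assays and were not compared.

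**Figure D5:**
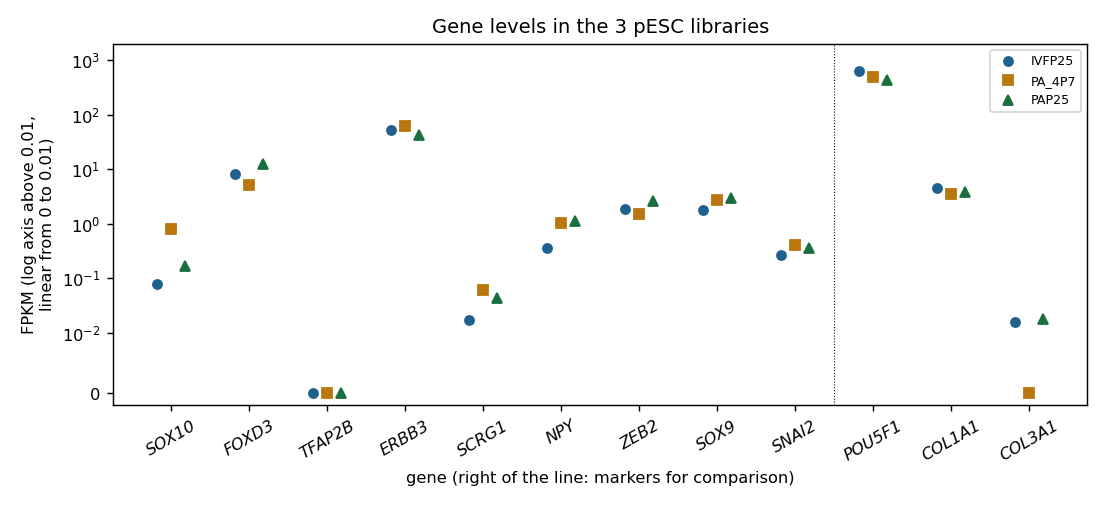
FPKM of the 9 genes and of 3 markers (right of the dotted line) in each of the 3 pESC libraries, on an axis that is logarithmic above 0.01 FPKM and linear from 0 to 0.01. *ERBB3* and *FOXD3* lie above the other members in every library, and *TFAP2B* lies at 0.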

How the data were processed

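Blastoid counts were deposited by the authors as raw UMI count matrices of all barcodes, made with Cell Ranger 7.1.0 on susScr11 per the submitters' processing notes. The pESC table holds FPKM per transcript, made by the authors with Trim Galore 0.6.4, HISAT2 2.2.1 and StringTie 2.2.1 on the same build. The FPKM column names do not show which labelled pESC sample each is, and 1 of them begins with IVF while the study's methods describe parthenogenetic cells. The members, the lists of other genes and the class rules were chosen with earlier results of these data known.

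Cells were kept by the UMI minimum of their library, with no other filter. Doublets were kept, because Scrublet (scanpy 1.11.5) set its own threshold at 2 cells in each library, and an alternative left out the 434 and 535 highest scores (0.8% per 1000 cells). Another left out 180 and 203 cells whose mitochondrial share lay over 5 median absolute deviations above the median. Counts were summed per library and class and tested with edgeR 4.0.16 (TMM, filterByExpr, glmQLFit and glmQLFTest, Benjamini-Hochberg, R 4.3.3), after recovery was tested on simulated data. Cells meeting both rules were left out of the sums. *CRABP1*, *COL3A1* and *COL1A2* were left out of the counts of calls for the classes, and *SOX10* and *CRABP1* for the split by *SOX10*. DESeq2 1.42.0 was an alternative. Intervals are exact Poisson or Clopper-Pearson intervals at 95% and cover counting error only. Of 30029 gene names, 29862 were in the RefSeq annotation.

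Named were all 9 members, the 10 genes most like *SOX10*, and in each comparison up to 5 genes per list with the largest log2 fold changes among those called with the same sign in both libraries. *FABP7*, *CDH19*, *MITF*, *NGFR*, *EDNRB*, *ERBB2*, *NRG1*, *SOX8*, *PAX3* and *TFAP2A* were named whatever they showed. Further genes were named after their values were seen, among them *CDH6*, *ERBB4*, *DCT*, *TYR*, *TYRP1*, *MLANA*, *NR2F2*, *MYCN*, *MBP*, *LUM*, *DCN*, *POSTN*, *GATA6*, *GATA4*, *GATA3*, *GATA2*, *POU5F1*, *UTF1*, *SIX3*, *LHX2* and the collagen genes. Some listed genes are not reported here and were left out of the lists' counts and of the ranking, but stayed in the fits over all genes.

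Sums of 1 library share its preparation, so the library number pairs them. The correlation of their deviations was 0.06 for CRABP1-high with collagen-high sums, 0.25 and 0.19 for these with the remaining cells, and 0.14 between cells with and without *SOX10*.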

Additional observations from a re-analysis of the deposited data

Results flagged for a closer look

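Barcodes below the cell threshold enter no comparison above. Among 3108 and 3661 barcodes with at least 1000 UMIs that fell short of the threshold in libraries 1 and 2 (median 2982.5 and 2759 UMIs), *SOX10* was found in 27 and 21. Of these, 10 (37.0%) and 11 (52.4%) also held *SCRG1*, *CDH19* or *FOXD3*, compared with 1.56% and 1.62% of the barcodes without *SOX10*. The barcodes with *SOX10* were deeper, with a median of 4949 and 3807 UMIs against 2968 and 2752 without it. After thinning to 1000 UMIs, *SOX10* was left in 11 and 10 barcodes, of which 3 and 3 also held one of these genes (27.3% and 30%), compared with 0.710% and 0.767% of the other barcodes. They were singled out because these counts lie in data outside the measured cells, with no control sample to set them against, and few barcodes stand behind the shares.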

How the results depend on the processing

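Of the log2 fold changes of list genes under the alternatives with a test, 1579 kept their direction and their side of the threshold, 49 passed only under the alternative, 25 lost the call, 3 with a call reversed and 33 that were called in neither changed sign. In 1 library alone, without a test, 0 of 216 values of called genes and 25 of 134 of the others changed sign. *MITF* in CRABP1-high cells was at -0.050 (adjusted p = 0.77) with at least 30 *CRABP1* UMIs required. With the cells meeting both rules included, an alternative chosen after seeing the data, *PAX3* and *CDH6* in collagen-high cells were at 0.66 and 0.84 (adjusted p = 0.017 and 0.0017). The cause was not tested. For the split by *SOX10*, 620 genes were called, 1195 with the library as a replicate block, 1162 with no filter on low counts, 1411 with at least 2 *SOX10* UMIs and 1344 with the cells meeting both rules included. These shared 620, 620, 572 and 582 genes with the 620, and DESeq2 called 424. The block raised the other counts by less than 1.5 times, to 6127 and 8049. Among the 10 genes most like *SOX10*, 6 stayed when thinned detection was correlated. Of 7 members at least 2-fold higher in CRABP1-high cells, 7 were so under all its alternatives, while 41 of 189 member CPM values moved by more than the SD between libraries, 6 of them by over 1.5 times. Averaged over libraries, *SOX10* in CRABP1-high cells went from 7.32 to 11.1 CPM in thinned cells, and in collagen-high cells *FOXD3* from 0.724 to 0.335 and *ERBB3* from 46.6 to 28.2 CPM. With at least 30 *CRABP1* UMIs required, collagen-high levels went from 1.10 to 1.76 for *SOX10*, 0.724 to 1.14 for *FOXD3* and 2.04 to 3.54 CPM for *SCRG1*. In pESCs, 4 members at 1 FPKM became 3 with the highest transcript and 5 without IVFP25. Leaving out a library left no residual degrees of freedom, so counts of calls could not be given for it. Depth limits *SNAI2*, *RET* and *NGFR* beside *SOX10*, which rest on a few UMIs.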
